A study of Mus musculus with 8 samples.

Results

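The Affymetrix Mouse Gene 2.1 array carries probe sets annotated to microRNA (miRNA) genes, and the members described here are those whose annotation held a single gene symbol, beginning with Mir and a digit or with Mirlet7, and whose log2 intensity exceeded the median of all deposited values, 4.24, on at least 2 of the 8 arrays. That rule gave 183 probe sets of 164 genes out of 511 single-symbol miRNA probe sets, in a table of 41345 probe sets. Members were thus chosen by their measured levels, which are given as a description. The rule did not use the differences between groups. For 10 members the only arrays above the median were the 2 of one group (7 in EpiSC, 2 in ICM, 1 in ESC), so these had to differ to some extent to be included. Others, such as Mir302c, Mir3070b, Mir467f, Mir32 and a probe set of Mirlet7f-1, were above it on both arrays of 1 group and on 1 array elsewhere. They too needed that group to be included, so differences from it, and their adjusted p, carry this choice. Another probe set of Mirlet7f-1 was above it on 1 FGF-ESC and 1 EpiSC array alone, and its differences from these groups carry the same choice. The other 328 miRNA probe sets stayed under the limit, and 15 of the 183 members had exactly the same 8 values as another member, which left 173 distinct rows of values.

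All samples were wild-type C57BL/6J mouse material, with 2 arrays in each of 4 groups. FGF-ESC and EpiSC (the usual name for primed epiblast stem cells) were both grown in KODMEM with 20% knockout serum replacement (KSR) and FGF2 on mouse embryonic fibroblast (MEF) feeders. ESC were grown without feeders, in DMEM with 15% fetal calf serum (FCS) plus 2i and LIF, where 2i stands for a pair of kinase inhibitors that hold cells in the naive state. ICM was uncultured inner cell mass taken from blastocysts of embryonic day 3.5 by immunosurgery. The labels trace all of the lines, EpiSC included, to embryos of day 3.5. RNA of ICM was extracted with another column kit than RNA of the lines, so kit and ICM cannot be told apart. The labels do not say if a group's 2 arrays stem from independent cultures or pools of embryos; p-values therefore cover no more than the spread between arrays, which may be technical.

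A miRNA gene is first transcribed as a long primary transcript. In the nucleus Drosha cuts out a hairpin, Dicer then cuts the hairpin to a short duplex, and an Argonaute protein keeps the mature strand, which pairs with messages mainly through its seed, bases 2 to 8. Many mouse miRNAs lie in clusters that share a primary transcript, and many lie inside an intron of a host gene. In mouse pluripotent cells the Mir290 cluster is known as the main naive-state cluster, and the Mir302 cluster is known to be switched on in the epiblast and in primed cells. Total RNA was labelled here, and the deposited values do not separate primary transcripts from hairpins or mature miRNAs. Levels of mature miRNAs were therefore not measured as such.

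The sequences below, from RefSeq on GRCm38.p6, are the mature forms of the members on which the results turn, with the seed in capitals. They show which members share a seed and so would pair with similar sites.
mmu-miR-302b-3p: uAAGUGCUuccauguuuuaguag
mmu-miR-302d-3p: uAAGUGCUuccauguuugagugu
mmu-miR-302c-3p: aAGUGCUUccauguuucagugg
mmu-miR-367-3p: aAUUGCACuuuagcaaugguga
mmu-miR-363-3p: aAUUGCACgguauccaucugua
mmu-miR-92b-3p: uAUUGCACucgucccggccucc
mmu-miR-32-5p: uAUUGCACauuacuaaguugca
mmu-miR-18b-5p: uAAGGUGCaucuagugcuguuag
mmu-miR-18a-5p: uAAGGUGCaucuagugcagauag
mmu-miR-17-5p: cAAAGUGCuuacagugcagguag
mmu-miR-20a-5p: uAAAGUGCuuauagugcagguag
mmu-let-7f-5p: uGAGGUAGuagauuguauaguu
mmu-miR-15a-5p: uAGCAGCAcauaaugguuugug
mmu-miR-5124a: gGUCCAGUgacuaagagcau
mmu-miR-1192: aAACAAACaaacagaccaaauu
mmu-miR-101c: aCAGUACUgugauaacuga
mmu-miR-680: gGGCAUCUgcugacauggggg
mmu-miR-544-3p: aUUCUGCAuuuuuagcaagcuc

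The miR-302b and miR-302d seeds are identical (AAGUGCU), and that of miR-302c (AGUGCUU) holds the same letters moved by 1 base. The seed of miR-367 (AUUGCAC) is not of that family: it is also the seed of miR-363, miR-92b and miR-32, whose genes Mir363, Mir92b and Mir32 are members too. Mir17 and Mir20a share one seed, and Mir18 and Mir18b another. In all, 21 seeds were shared by at least 2 member genes, among the 135 members for which the RefSeq table held a mature sequence. To show how a mature strand sits in its precursor, the hairpin of Mir302b at chr3:127545228-127545301 (plus strand) is given with the mature strand in capitals.
mmu-miR-302b-3p in hairpin: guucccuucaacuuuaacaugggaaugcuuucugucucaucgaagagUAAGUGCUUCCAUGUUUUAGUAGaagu

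Among the 183 members, 51 probe sets (41 distinct rows of values) changed in at least 1 comparison, which is 27.9% beside 25.3% of all tested probe sets. A probe set is counted as changed when its adjusted p was under 0.05 and its group means differed at least 2-fold, which is 1 on the log2 scale, in a limma fit to all 14421 single-symbol probe sets that passed the same level limit. Between FGF-ESC and EpiSC, which shared medium and feeders, 34 of 183 members changed (18.6%), against a background of 7.59% of all tested probe sets. Only 1 of them, Mir1192, was higher in FGF-ESC (background 5.31%), and 33 were lower (background 2.27%). Between EpiSC and ESC, the primed and the naive line, 33 members changed (18%, background 7.61%), 30 higher in EpiSC (background 4.05%) and 3 lower (background 3.56%). FGF-ESC and ESC differed in 5 members (2.73%, background 6.29%): Mir363, Mir18b and Mir17 were higher in FGF-ESC (background 5.22%), and Mir5124a and Mir680-1 were lower (background 1.07%).

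Against the embryo, 32 members changed in FGF-ESC (17.5%, background 15%), 9 higher (background 9.73%) and 23 lower (background 5.29%). In EpiSC 21 changed (11.5%, background 15.3%), 19 higher (background 8.63%) and 2 lower (background 6.69%). In ESC 33 changed (18%, background 11.7%), 12 higher (background 6.05%) and 21 lower (background 5.62%). The 6 comparisons share groups and are not independent of each other. In all, 51 members of 34 genes changed in at least 1 comparison, and their highest group mean was in EpiSC for 36, in ESC for 7, in ICM for 5 and in FGF-ESC for 3. Most of this traces to few loci: 27 of the 51 lie within the gene Sfmbt2, and 5 form the Mir302 cluster. The 36 include repeated rows of Sfmbt2 and members such as Mir302a and Mir367 that the rule took in through EpiSC alone. The group of highest mean was not counted over all tested probe sets, so the 36 has no background beside it. Repeated rows weigh on the counts, since the 34, 33, 32 and 33 calls in FGF-ESC against EpiSC, EpiSC against ESC, FGF-ESC against ICM and ESC against ICM came from 24, 23, 22 and 23 distinct rows. Over all tested probe sets 25.3% changed in at least 1 comparison, beside 27.9% of the members (51 of 183). The 10 members that were above the median in one group alone were also left out, a choice made after seeing the data. In the other 173 the counts were 28 (16.2%) for FGF-ESC against EpiSC, 4 (2.31%) for FGF-ESC against ESC and 32 (18.5%) for FGF-ESC against ICM. They were 27 (15.6%) for EpiSC against ESC, 16 (9.25%) for EpiSC against ICM and 32 (18.5%) for ESC against ICM. The same step was not taken over all tested probe sets, so these shares have no matching background. Members such as Mir302c, which also needed 1 group to be included, stayed in. One array could also move a count: the 5 calls between FGF-ESC and ESC became 9 without FGF-ESC replicate 1, 13 without FGF-ESC replicate 2 and 3 without ESC replicate 1.

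**Figure D1:**
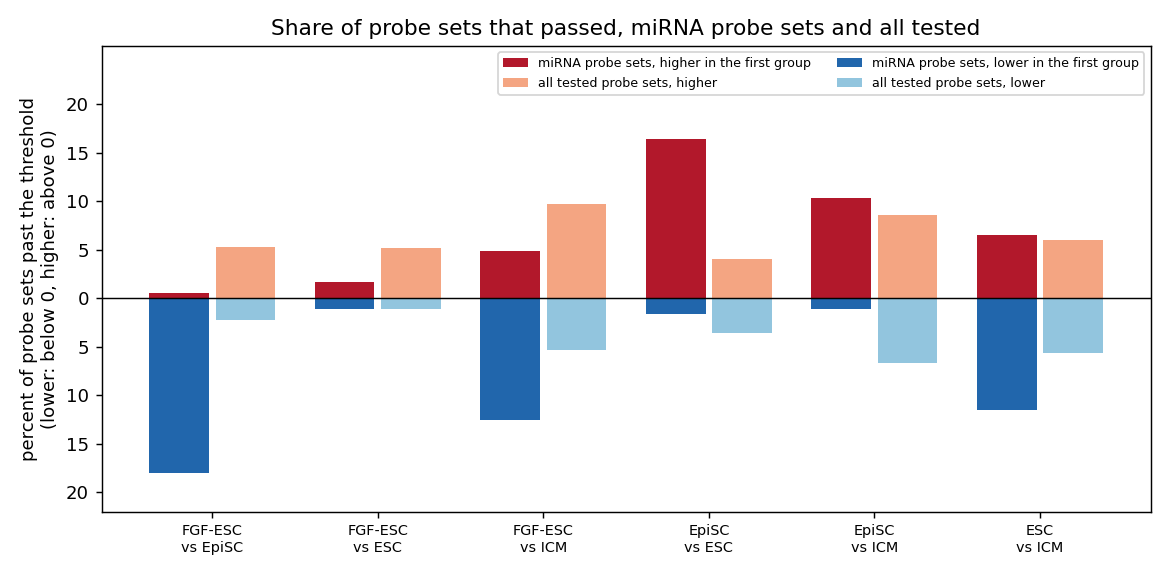
Percent of probe sets past the threshold in each of the 6 comparisons (y axis), higher in the first-named group above 0 and lower below 0; dark bars are the 183 miRNA probe sets and pale bars all 14421 tested. The longest dark bars are the 18.0% lower in FGF-ESC than in EpiSC and the 16.4% higher in EpiSC than in ESC.

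The agreement between arrays and the levels of cell type markers differed between groups. Over all tested probe sets the correlation between the arrays of a group ran from 0.968 in FGF-ESC to 0.994 in ESC, and 420 tested probe sets differed by at least 1 between the FGF-ESC arrays, against 86 between the ICM arrays, 21 between the EpiSC arrays and 0 between the ESC arrays. Among the members the ICM arrays differed most: 4 members differed by at least 1 in FGF-ESC, 0 in EpiSC, 0 in ESC and 11 in ICM. The mean log2 level of 24 fibroblast markers was 8.65 and 7.46 in FGF-ESC, 5.18 and 5.51 in EpiSC, 4.62 and 4.63 in ESC and 4.50 and 4.70 in ICM, so the level of these markers was highest in FGF-ESC. The numbers of these markers above the median on both arrays were 23, 18, 11 and 12 in the same order. Of 8 trophectoderm markers, 6, 5, 5 and 7 lay above the median on both arrays, in the same order, with Elf5 under it in every group. Their mean log2 level was 5.70 and 5.62 on the ICM arrays and between 4.67 and 5.02 on the others. Of 7 primitive endoderm markers the numbers were 4, 6, 3 and 5. Their mean log2 level was 5.12 and 4.83 in FGF-ESC, 4.65 and 4.81 in EpiSC, 4.12 and 4.25 in ESC and 5.71 and 5.78 in ICM. Of 10 pluripotency markers, 9 lay above the median on both arrays of FGF-ESC, ESC and ICM, where Fgf5, a marker of the primed epiblast, was under it, and all 10 did in EpiSC. In such bulk RNA, fewer cells of a type and less RNA per cell cannot be told apart.

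All 5 genes of the Mir302 cluster were members and had their highest levels in EpiSC. Mir302a, Mir302b, Mir302d and Mir367 were above the median in EpiSC alone. Mir302c was also above it on 1 ICM array, which falls short of the 2 arrays required. None of the 5 would be a member without EpiSC, so their differences from EpiSC are given as a description, with no test. The log2 fold changes of the 5 genes ran from 1.10 to 3.24 over the comparisons of EpiSC with ESC and ICM. Mir367, whose mature form has the AUUGCAC seed, read 2.42 and 2.75 in FGF-ESC, 5.58 and 5.72 in EpiSC, 2.34 and 2.47 in ESC and 2.50 and 2.34 in ICM. Both EpiSC arrays stood far above all 6 others, which overlapped among themselves. The log2 fold change of Mir367 was -3.07 ± 0.15 for FGF-ESC minus EpiSC, 3.24 ± 0.15 for EpiSC minus ESC and 3.23 ± 0.15 for EpiSC minus ICM, with limma's SE pooled over the 4 groups of 2 arrays, as for every SE here.

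Mir302a had levels of 2.39 and 2.53 in FGF-ESC, 5.69 and 5.73 in EpiSC, 2.71 and 2.65 in ESC and 2.56 and 3.16 in ICM. Again no array outside EpiSC came near the EpiSC pair. Its log2 fold change was -3.25 ± 0.19 for FGF-ESC minus EpiSC, and 3.03 and 2.85 for EpiSC minus ESC and EpiSC minus ICM. Mir302c gave 2.99 and 3.86 in FGF-ESC, 5.98 and 6.12 in EpiSC, 3.74 and 3.21 in ESC and 4.81 and 3.81 in ICM, so that the first ICM array, though under both EpiSC arrays, was above the median. Mir302c was lower in FGF-ESC than in EpiSC at a log2 fold change of -2.63 ± 0.37, and higher in EpiSC than in ESC by 2.58 ± 0.37 and than in ICM by 1.75 ± 0.37.

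The probe sets of Mir302b and Mir302d, which share their seed, showed smaller differences. Mir302b read 2.95 and 3.52 in FGF-ESC, 4.87 and 4.61 in EpiSC, 3.33 and 2.98 in ESC and 3.87 and 3.41 in ICM, and Mir302d read 3.31 and 3.51 in FGF-ESC, 4.43 and 4.94 in EpiSC, 3.34 and 3.30 in ESC and 3.33 and 3.41 in ICM. For neither did an EpiSC array overlap any other group. Mir302b differed by -1.51 ± 0.24 for FGF-ESC minus EpiSC, 1.59 ± 0.24 for EpiSC minus ESC and 1.10 ± 0.24 for EpiSC minus ICM. The last of these was 0.97 with EpiSC replicate 1 left out and 0.87 with ICM replicate 2 left out. Mir302d differed by -1.28, 1.37 and 1.32 in the same 3 comparisons. None of the 5 genes changed among FGF-ESC, ESC and ICM, where the largest difference was -0.88 for Mir302c in FGF-ESC minus ICM. In all of these groups their means lay under the median of all values, apart from Mir302c in ICM, so the folds against them are taken over values under that median.

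The 5 Mir302 hairpins span 580 bases at chr3:127545228-127545807 (plus strand, GRCm38.p6). They lie within the long non-coding RNA gene Gm51018 on the same strand, which has no probe set of its own symbol here, and within Larp7, a gene for an RNA-binding protein of the 7SK complex, on the opposite strand. Larp7 read 8.15 and 8.48 in FGF-ESC, 8.70 and 8.75 in EpiSC, 8.35 and 8.52 in ESC and 8.78 and 8.84 in ICM, and it did not change in any comparison. The levels of the Mir302 probe sets and of the gene that overlaps them on the other strand are given side by side, with no test of their difference: for EpiSC minus ESC the log2 fold change of Mir302a was 3.03 and that of Larp7 was 0.29 ± 0.14 (adjusted p = 0.215). The promoter window of Gm51018, 300 bases around its annotated start, lies just upstream of the cluster and is shown with a match to the TCF/LEF letters in capitals.
Gm51018 promoter, chr3:127544839-127545138, plus strand: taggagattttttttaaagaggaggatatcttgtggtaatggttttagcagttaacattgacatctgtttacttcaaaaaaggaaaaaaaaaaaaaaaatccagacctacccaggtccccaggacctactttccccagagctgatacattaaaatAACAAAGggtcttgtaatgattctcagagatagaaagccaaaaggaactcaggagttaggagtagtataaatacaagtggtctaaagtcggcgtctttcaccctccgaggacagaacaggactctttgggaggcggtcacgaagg
Searched on both strands, CTTTGNT (TCF/LEF) had 1 match, on the minus strand, and 18.6% of 32851 mouse promoters of the table hold one. The octamer ATGCAAAT, present in 1.74% of promoters, and the SOX letters ACAATG, present in 12.6%, were not in this window. The promoter window of Kis2, a gene of the X-linked Mir106a-363 cluster, was searched in the same way and had 0 matches to each of these. These are matches of letters, not measured binding.

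**Figure D2:**
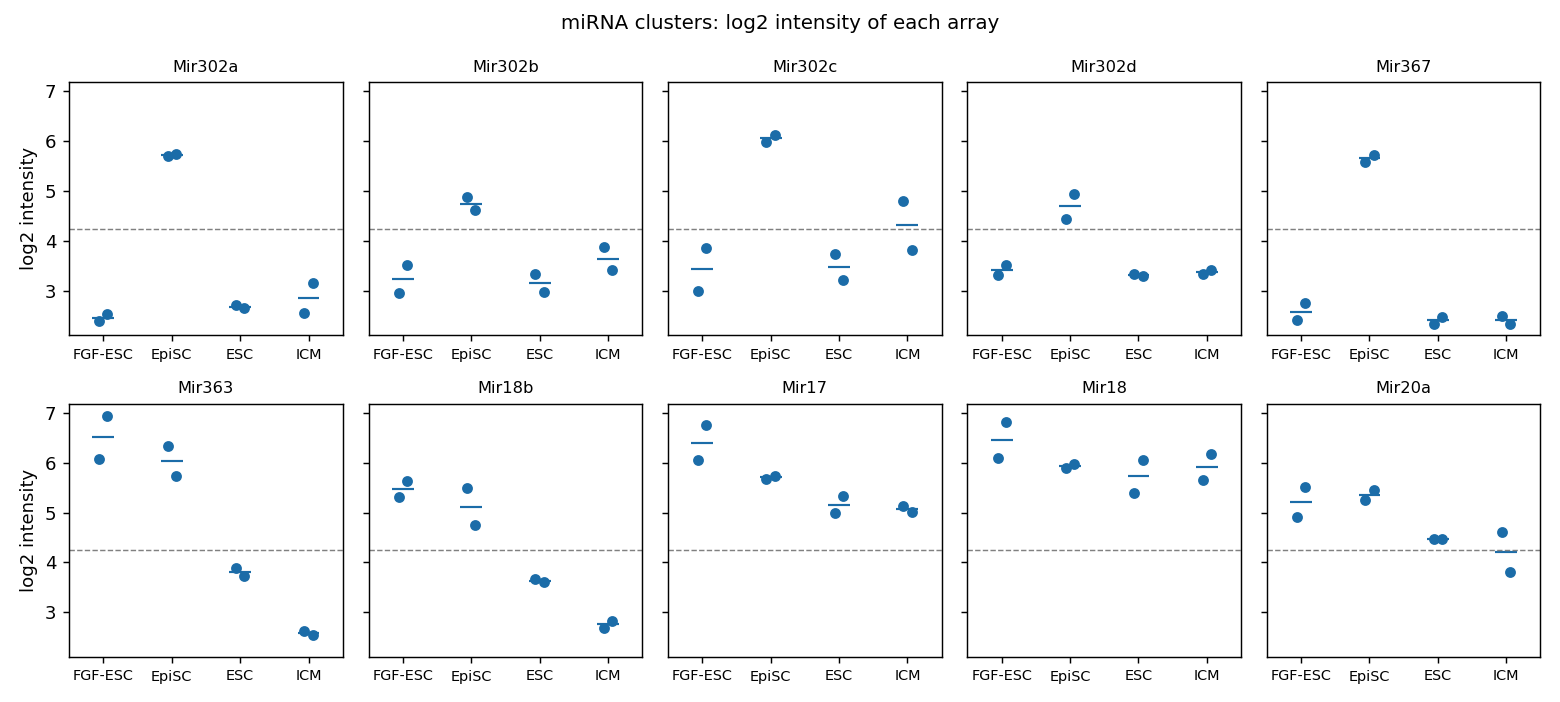
Log2 intensity (y axis) of each array for the 5 genes of the Mir302 cluster (top), Mir363 and Mir18b of the X-linked cluster and 3 genes of the Mir17-92 cluster (bottom); points are arrays, short lines group means and the dashed line is the median of all values, 4.24. Only the 2 EpiSC arrays lie above the dashed line for Mir302a, Mir302b, Mir302d and Mir367, and FGF-ESC and EpiSC lie above ESC and ICM for Mir363 and Mir18b.

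A different split held for the X-linked Mir106a-363 cluster, a relative of Mir17-92 with seeds shared between them. Here both lines grown with FGF2 on feeders were high. Mir363 read 6.07 and 6.94 in FGF-ESC, 6.33 and 5.73 in EpiSC, 3.89 and 3.73 in ESC and 2.63 and 2.55 in ICM. The FGF-ESC and EpiSC arrays overlapped each other and lay above both ESC arrays, which in turn lay above both ICM arrays. Mir363 was higher in FGF-ESC than in ESC by 2.70 ± 0.29 (adjusted p = 0.000981) and than in ICM by 3.92 ± 0.29 (adjusted p = 3.1e-05), the largest log2 fold change of any member. In EpiSC it was higher than in ESC by 2.22 ± 0.29 (adjusted p = 0.00108) and than in ICM by 3.44 ± 0.29 (adjusted p = 4.44e-05).

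Between the other groups, ESC exceeded ICM for Mir363 by 1.22 ± 0.29 (adjusted p = 0.0123), which did not pass with ESC replicate 1 left out (1.14 on the log2 scale), ESC replicate 2 left out (1.3), ICM replicate 1 left out (1.26) or ICM replicate 2 left out (1.18); over all settings tried its adjusted p lay between 0.000474 and 0.087. Mir18b, from the same cluster, read 5.31 and 5.64 in FGF-ESC, 5.49 and 4.75 in EpiSC, 3.66 and 3.60 in ESC and 2.69 and 2.83 in ICM. It followed the same order of groups, and its log2 fold change was 1.84 ± 0.23 (adjusted p = 0.00205) for FGF-ESC minus ESC, 2.72 ± 0.23 (adjusted p = 6.61e-05) for FGF-ESC minus ICM, 1.49 ± 0.23 (adjusted p = 0.00273) for EpiSC minus ESC and 2.36 ± 0.23 (adjusted p = 0.000107) for EpiSC minus ICM. Neither gene changed between FGF-ESC and EpiSC. The remaining single-symbol probe sets of the cluster, Mir20b, Mir19b-2 and Mir92-2, were under the level limit. Fibroblast markers were highest in FGF-ESC as well, and their part in the result was not tested.

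The autosomal Mir17-92 cluster on chromosome 14, known for promoting cell growth, had 3 members. Mir17 read 6.04 and 6.75 in FGF-ESC, 5.68 and 5.73 in EpiSC, 4.98 and 5.33 in ESC and 5.13 and 5.0 in ICM. Both FGF-ESC arrays were above all others, and the EpiSC arrays came next. Mir17 was higher in FGF-ESC than in ESC by 1.24 ± 0.23 (adjusted p = 0.0104), which did not pass with only the 2 groups compared in the fit (1.24 on the log2 scale), FGF-ESC replicate 2 left out (0.88) or ESC replicate 1 left out (1.07); over all settings tried its adjusted p lay between 0.000797 and 0.105. It was also higher in FGF-ESC than in ICM by 1.33 ± 0.23 (adjusted p = 0.00232), which did not pass with FGF-ESC replicate 2 left out (0.98 on the log2 scale); over all settings tried its adjusted p lay between 0.000184 and 0.0205. Mir20a, with the seed of Mir17, read 4.90 and 5.51 in FGF-ESC, 5.26 and 5.45 in EpiSC, 4.47 and 4.47 in ESC and 4.61 and 3.80 in ICM. Among the 6 comparisons it changed only between EpiSC and ICM, by 1.15 ± 0.27 (adjusted p = 0.0113), and did not pass with EpiSC replicate 2 left out (1.05 on the log2 scale) or ICM replicate 2 left out (0.75); over all settings tried its adjusted p lay between 0.00319 and 0.0729. Mir18, which has the seed of Mir18b, changed in no comparison, with values of 6.10 and 6.81 in FGF-ESC, 5.88 and 5.98 in EpiSC, 5.4 and 6.06 in ESC and 5.65 and 6.16 in ICM. Mir19a of this cluster, Mir106b of the Mir106b-25 cluster and Mir290a, the only single-symbol probe set of the Mir290 cluster, were under the level limit.

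The 4 members with the AUUGCAC seed are given side by side, with no test of their differences from each other. Mir367 was high in EpiSC alone, and Mir363 in FGF-ESC and EpiSC. Mir92b, on chromosome 3, read 5.61 and 5.83 in FGF-ESC, 6.09 and 5.65 in EpiSC, 5.57 and 5.56 in ESC and 5.76 and 6.08 in ICM. Mir32, on chromosome 4, read 3.52 and 4.49 in FGF-ESC, 3.86 and 3.54 in EpiSC, 4.68 and 4.62 in ESC and 3.95 and 4.18 in ICM. Neither Mir92b nor Mir32 changed in any comparison. The largest difference of Mir32 was -0.95 ± 0.28 for EpiSC minus ESC, given with no test because Mir32 needed ESC to be a member.

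The largest block of changed members came from one gene. Sfmbt2 encodes a Polycomb-group protein, is imprinted in mouse, and one of its introns holds a long, rodent-specific array of repeated miRNA genes of the Mir297, Mir466, Mir467 and Mir669 families. Of the members, 34 probe sets of 17 genes lay within its span, with 24 distinct rows of values. The near-identical copies could not be told apart where their values were the same, and their strand relative to Sfmbt2 was not checked here. Sfmbt2 itself read 5.41 and 5.06 in FGF-ESC, 7.48 and 7.46 in EpiSC, 5.19 and 5.41 in ESC and 7.18 and 7.24 in ICM. It was high in EpiSC and in ICM and low in FGF-ESC and in ESC, with log2 fold changes of -2.24 ± 0.15 (adjusted p = 7.2e-05) for FGF-ESC minus EpiSC, -1.98 ± 0.15 (adjusted p = 3.54e-05) for FGF-ESC minus ICM, 2.17 ± 0.15 (adjusted p = 4.96e-05) for EpiSC minus ESC and -1.91 ± 0.15 (adjusted p = 5.24e-05) for ESC minus ICM.

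Most miRNA probe sets in the gene had the same shape: in 25 of 34 (15 distinct rows) every EpiSC and ICM array was above every FGF-ESC and ESC array, and 21 (11 distinct rows) were both higher in EpiSC than in ESC and lower in ESC than in ICM. Mir669k had the largest differences. The probe set of it with the smallest adjusted p in the comparison of EpiSC with ESC read 3.97 and 4.15 in FGF-ESC, 6.71 and 6.66 in EpiSC, 4.2 and 3.86 in ESC and 6.09 and 5.94 in ICM. Its log2 fold change was -2.63 ± 0.15 (adjusted p = 4.24e-05) for FGF-ESC minus EpiSC, -1.96 ± 0.15 (adjusted p = 3.81e-05) for FGF-ESC minus ICM, 2.66 ± 0.15 (adjusted p = 2.23e-05) for EpiSC minus ESC and -1.99 ± 0.15 (adjusted p = 4.33e-05) for ESC minus ICM, while EpiSC and ICM differed by 0.67 ± 0.15 (adjusted p = 0.00813), short of the 2-fold limit. A further row of Mir669k values, shared by 3 probe sets, read 4.07 and 4.55 in FGF-ESC, 6.81 and 6.65 in EpiSC, 4.47 and 3.97 in ESC and 6.52 and 6.49 in ICM.

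Mir669j read 4.83 and 4.68 in FGF-ESC, 6.26 and 6.10 in EpiSC, 5.04 and 4.83 in ESC and 6.48 and 6.30 in ICM. Here the ICM arrays were the highest, and the log2 fold change was -1.43 for FGF-ESC minus EpiSC, -1.64 for FGF-ESC minus ICM, 1.25 for EpiSC minus ESC and -1.46 for ESC minus ICM. Mir669i read 4.69 and 4.77 in FGF-ESC, 6.92 and 6.38 in EpiSC, 4.57 and 4.58 in ESC and 5.98 and 6.52 in ICM, and ESC was lower than ICM at a log2 fold change of -1.67 ± 0.22 (adjusted p = 0.000699). Mir466b-2, whose 6 called probe sets held 1 row of values, read 5.45 and 5.74 in FGF-ESC, 7.24 and 7.30 in EpiSC, 6.00 and 5.31 in ESC and 7.10 and 7.21 in ICM, and ESC was lower than ICM at a log2 fold change of -1.5 ± 0.22 (adjusted p = 0.00114). For all of these, FGF-ESC and ESC did not pass the test against each other.

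A smaller set in the same gene went the other way between ESC and ICM. Mir467e, Mir669m-1, Mir669a-3 and Mir297a-4 were higher in ESC than in ICM, while Sfmbt2 was lower. Mir467e read 7.62 and 8.43 in FGF-ESC, 8.62 and 8.41 in EpiSC, 8.80 and 8.91 in ESC and 6.68 and 6.68 in ICM. The ICM arrays were far below all the lines, ESC had the highest values, and the log2 fold change was 2.17 ± 0.23 (adjusted p = 0.000266) for ESC minus ICM and 1.84 ± 0.23 (adjusted p = 0.000438) for EpiSC minus ICM. FGF-ESC also exceeded ICM by 1.35 ± 0.23 (adjusted p = 0.00262), which did not pass with FGF-ESC replicate 2 left out (0.94 on the log2 scale); over all settings tried its adjusted p lay between 6.81e-05 and 0.0201. Mir669m-1 read 8.05 and 8.71 in FGF-ESC, 8.85 and 8.62 in EpiSC, 9.27 and 9.25 in ESC and 8.01 and 7.75 in ICM, and its log2 fold change was 1.38 ± 0.21 (adjusted p = 0.00166) for ESC minus ICM. Mir669a-3 and Mir297a-4 had log2 fold changes of 1.02 and 1.14 for ESC minus ICM. That of Mir669a-3 did not pass with arrays centred on their medians (0.99 on the log2 scale), ESC replicate 1 left out (0.89), ESC replicate 2 left out (1.15), ICM replicate 1 left out (0.90) or ICM replicate 2 left out (1.13); over all settings tried its adjusted p lay between 0.00213 and 0.155. That of Mir297a-4 did not pass with ESC replicate 1 left out (1.03 on the log2 scale) or ICM replicate 2 left out (0.98); over all settings tried its adjusted p lay between 0.00159 and 0.0751. The remaining 9 probe sets in the gene changed neither between EpiSC and ESC nor between ESC and ICM.

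**Figure D3:**
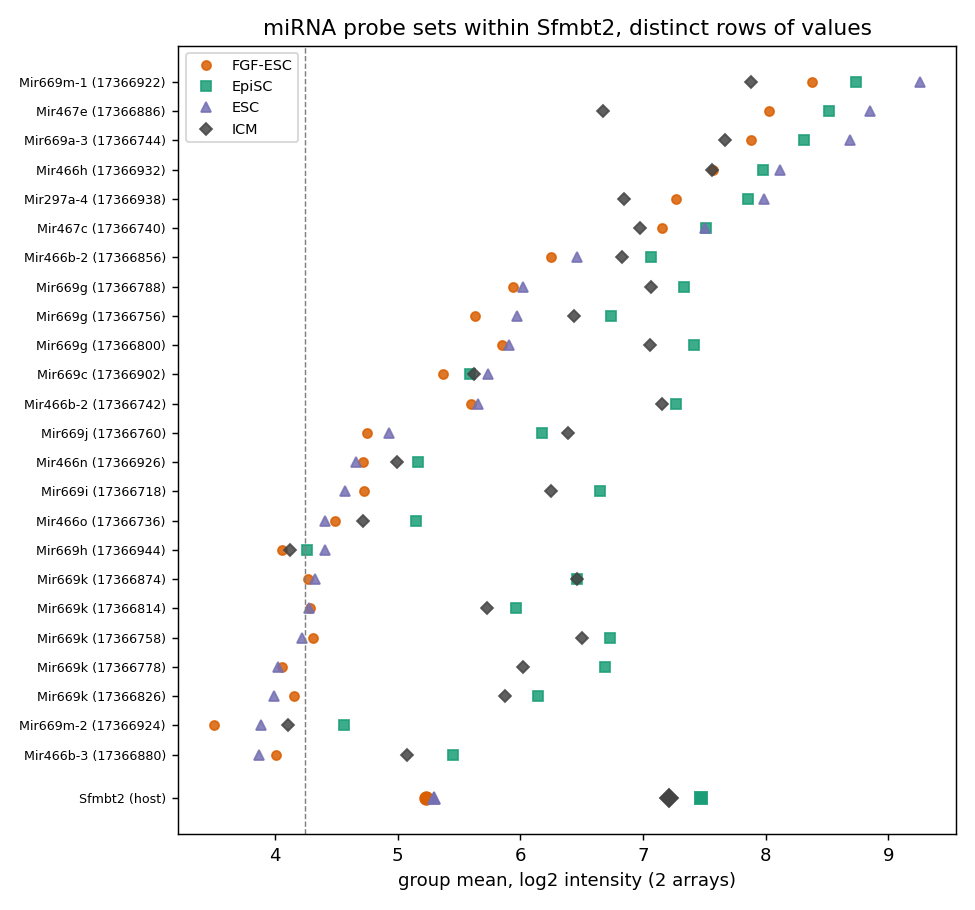
Group means in log2 intensity (x axis, 2 arrays per group) of the 24 distinct rows of miRNA values within Sfmbt2, ordered by their ESC mean, with the probe set number in brackets, and of Sfmbt2 itself at the bottom; the dashed line is the median of all values, 4.24. In rows such as those of Mir669k, Mir669j and Mir669i, EpiSC and ICM lie to the right of FGF-ESC and ESC, as for Sfmbt2, while in the rows of Mir467e and Mir669m-1 ICM lies furthest left, and in those of Mir669c and Mir669h the groups lie close together with ESC furthest right.

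Counted over comparisons, the calls of miRNA probe sets in Sfmbt2 went with a call of Sfmbt2 in the same direction in 23 of 23 cases for FGF-ESC against EpiSC, 21 of 22 for FGF-ESC against ICM, 21 of 21 for EpiSC against ESC and 21 of 25 for ESC against ICM. These 23, 22, 21 and 25 calls held only 13, 12, 11 and 15 distinct rows of values, all from 1 locus, so they are not independent cases. Between EpiSC and ICM, where Sfmbt2 did not change, 2 of its miRNA probe sets did. In other genes that hold a member on either strand the host was called in the same direction in 3 of 8 for EpiSC against ESC, 1 of 6 for FGF-ESC against EpiSC, 1 of 8 for EpiSC against ICM, 1 of 2 for ESC against ICM, 0 of 2 for FGF-ESC against ICM and 0 of 1 for FGF-ESC against ESC. The 5 Mir302 genes over Larp7 on the opposite strand are among the unmatched ones. Levels of a miRNA probe set and of its host come from different probes and are not compared with each other, only their differences between groups.

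Mir5124a and Gcnt2, the gene of a glycosyltransferase that makes the I antigen, lie on the same strand and were both highest in ESC. Mir5124a read 4.16 and 3.85 in FGF-ESC, 3.28 and 3.41 in EpiSC, 5.23 and 5.28 in ESC and 3.96 and 3.76 in ICM. The ESC arrays were above the median and all 6 others under it, so that Mir5124a was a member through ESC alone and its differences are given with no test. The log2 fold change of Mir5124a was -1.24 ± 0.14 for FGF-ESC minus ESC and -1.91 ± 0.14 for EpiSC minus ESC, and it was higher in ESC than in ICM by 1.39 ± 0.14. Gcnt2 read 5.96 and 6.41 in FGF-ESC, 4.66 and 4.38 in EpiSC, 6.36 and 6.61 in ESC and 5.10 and 5.08 in ICM. It changed in EpiSC against ESC (-1.97 ± 0.18 (adjusted p = 0.000189)) and in ESC against ICM (1.40 ± 0.18 (adjusted p = 0.000655)), but for FGF-ESC minus ESC its difference was -0.30 ± 0.18 (adjusted p = 0.29).

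Mir1192 lies within Klf9, the gene of a Krüppel-like transcription factor, and both were lowest in EpiSC. Mir1192 read 5.17 and 5.44 in FGF-ESC, 3.84 and 3.49 in EpiSC, 4.69 and 5.25 in ESC and 5.55 and 5.73 in ICM. EpiSC was the only group with both arrays under the median. The log2 fold change was 1.64 ± 0.21 (adjusted p = 0.00143) for FGF-ESC minus EpiSC, -1.30 ± 0.21 (adjusted p = 0.00348) for EpiSC minus ESC and -1.97 ± 0.21 (adjusted p = 0.000183) for EpiSC minus ICM. Klf9 read 6.32 and 6.62 in FGF-ESC, 5.13 and 5.25 in EpiSC, 6.72 and 6.44 in ESC and 6.57 and 7.04 in ICM, and it changed by 1.28, -1.39 and -1.61 in the same comparisons.

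Mir15a, a gene known to restrain cell division, lies within the non-coding gene Dleu2. It read 5.98 and 6.58 in FGF-ESC, 5.61 and 5.34 in EpiSC, 6.80 and 6.74 in ESC and 6.47 and 5.32 in ICM. The 2 ICM arrays were far apart, and ESC was higher than EpiSC without overlap. The log2 fold change for EpiSC minus ESC was -1.30 ± 0.34 (adjusted p = 0.0323), which did not pass with all probe sets in the fit (-1.30 on the log2 scale), EpiSC replicate 1 left out (-1.43), EpiSC replicate 2 left out (-1.16), ESC replicate 1 left out (-1.27) or ESC replicate 2 left out (-1.33); over all settings tried its adjusted p lay between 0.000235 and 0.173. Dleu2 read 5.12 and 5.47 in FGF-ESC, 4.82 and 4.51 in EpiSC, 5.99 and 5.88 in ESC and 5.91 and 5.79 in ICM and fell in EpiSC relative to ESC as well, at a log2 fold change of -1.27 ± 0.16 (adjusted p = 0.00107). Mir1949, within the small nucleolar RNA host gene Snhg4, read 7.39 and 7.53 in FGF-ESC, 8.05 and 7.97 in EpiSC, 7.82 and 7.64 in ESC and 5.55 and 6.75 in ICM. Both ICM arrays were lowest and differed from each other by more than 1. It was higher than in ICM in FGF-ESC by 1.31 ± 0.32 (adjusted p = 0.0134), in EpiSC by 1.87 ± 0.32 (adjusted p = 0.00225) and in ESC by 1.58 ± 0.32 (adjusted p = 0.00627). The first did not pass with only the 2 groups compared in the fit (1.31 on the log2 scale) or ICM replicate 1 left out (0.71); over all settings tried its adjusted p lay between 0.000356 and 0.0575. The third did not pass with ESC replicate 1 left out (1.49 on the log2 scale) or ICM replicate 1 left out (0.98); over all settings tried its adjusted p lay between 0.000242 and 0.0552. Snhg4 itself, at 8.19 and 8.44 in FGF-ESC, 8.72 and 8.75 in EpiSC, 8.32 and 8.48 in ESC and 7.80 and 8.14 in ICM, changed in no comparison.

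**Figure D4:**
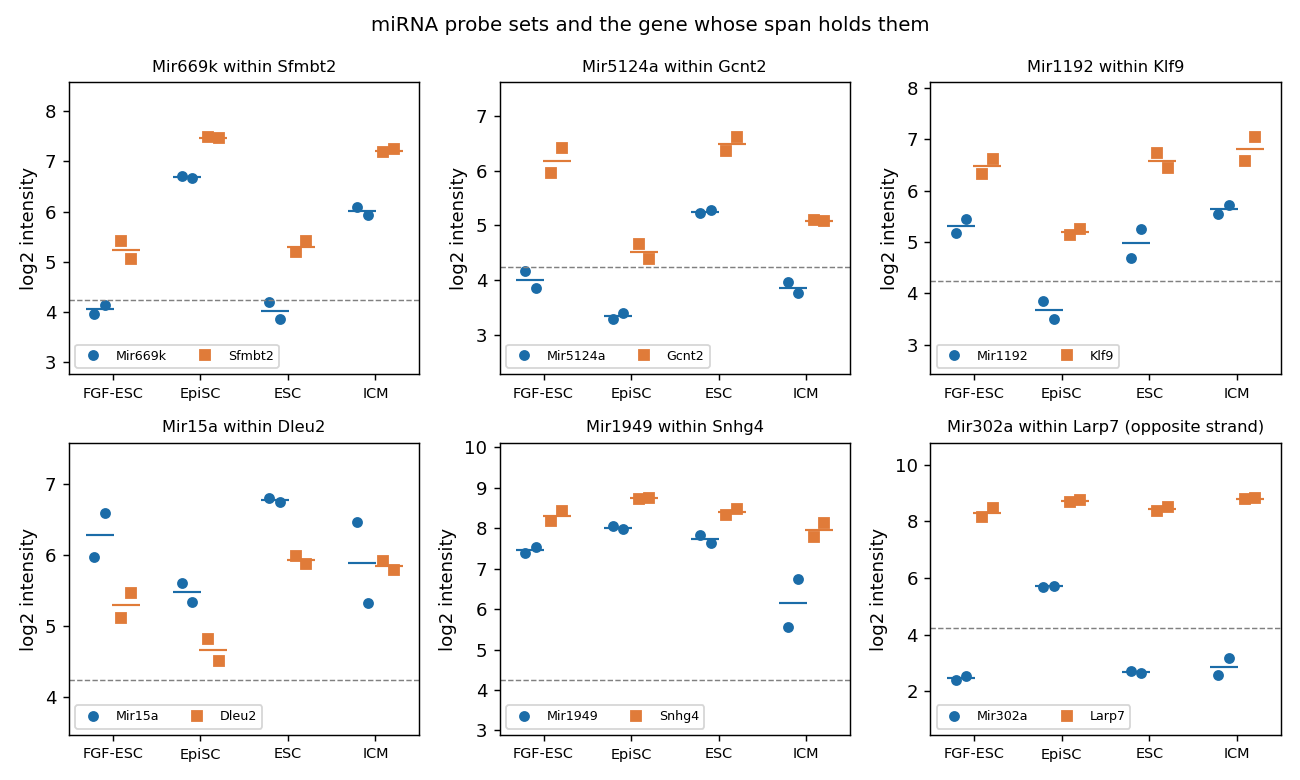
Log2 intensity (y axis, its range set per panel) of 6 miRNA probe sets (circles) and of the gene whose span holds each (squares) on every array, with short lines for group means and a dashed line at the median of all values, 4.24. Mir669k and Sfmbt2 are high in EpiSC and ICM, Mir1192 and Klf9 are low in EpiSC, and Mir302a is high in EpiSC while Larp7, on the other strand, changed in no comparison.

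The let-7 genes are known for mature miRNAs that accumulate as cells differentiate, while LIN28 proteins bind let-7 precursors and block their processing. Of 3 let-7 probe sets among the members, both of Mirlet7f-1 changed. The first read 3.55 and 4.60 in FGF-ESC, 4.74 and 3.93 in EpiSC, 2.94 and 3.02 in ESC and 2.21 and 1.97 in ICM. The second read 3.70 and 5.01 in FGF-ESC, 4.28 and 4.51 in EpiSC, 3.54 and 3.24 in ESC and 2.55 and 2.53 in ICM. In each, both ICM arrays were below all arrays of the lines. For the first, the log2 fold change was 1.98 ± 0.35 (adjusted p = 0.00291) for FGF-ESC minus ICM, 2.24 ± 0.35 (adjusted p = 0.00136) for EpiSC minus ICM and 1.35 ± 0.35 (adjusted p = 0.0289) for EpiSC minus ESC. The last did not pass with all probe sets in the fit (1.35 on the log2 scale), EpiSC replicate 1 left out (0.95), ESC replicate 1 left out (1.32), ESC replicate 2 left out (1.39), ICM replicate 1 left out (1.35) or ICM replicate 2 left out (1.35); over all settings tried its adjusted p lay between 0.00219 and 0.195. For the second it was 1.82 ± 0.35 (adjusted p = 0.00457) for FGF-ESC minus ICM and 1.85 ± 0.35 (adjusted p = 0.0037) for EpiSC minus ICM; that of FGF-ESC was 1.16 with FGF-ESC replicate 2 left out and still passed. Mirlet7a-1, with the same seed, changed in no comparison, at 4.41 and 4.43 in FGF-ESC, 4.49 and 4.77 in EpiSC, 4.54 and 4.83 in ESC and 4.19 and 4.23 in ICM.

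Among 26 tested genes of miRNA processing and function, out of 30 on the list, the counts that rose and fell were 1 and 2 for FGF-ESC against EpiSC, 2 and 0 for FGF-ESC against ESC, 2 and 0 for FGF-ESC against ICM, 3 and 1 for EpiSC against ESC, 5 and 0 for EpiSC against ICM and 1 and 0 for ESC against ICM. As shares called in either direction, with the background in brackets, these were 11.5% (7.59%) for FGF-ESC against EpiSC, 7.69% (6.29%) for FGF-ESC against ESC, 7.69% (15%) for FGF-ESC against ICM, 15.4% (7.61%) for EpiSC against ESC, 19.2% (15.3%) for EpiSC against ICM and 3.85% (11.7%) for ESC against ICM. The median log2 fold change over the list was 0.36 for EpiSC minus ICM, beside 0.02 over all tested probe sets, and lay between -0.13 and 0.20 in the other comparisons. Lin28a read 6.36 and 6.48 in FGF-ESC, 7.67 and 7.46 in EpiSC, 6.85 and 6.83 in ESC and 5.72 and 5.83 in ICM. The groups did not overlap, with EpiSC highest and ICM lowest. Lin28a was lower in FGF-ESC than in EpiSC at a log2 fold change of -1.15 ± 0.12 (adjusted p = 0.000604), and higher than in ICM by 1.79 ± 0.12 (adjusted p = 1.74e-05) in EpiSC and 1.06 ± 0.12 (adjusted p = 0.000408) in ESC. Lin28b read 4.13 and 4.64 in FGF-ESC, 5.57 and 5.50 in EpiSC, 4.34 and 4.63 in ESC and 4.04 and 3.81 in ICM. EpiSC was highest without overlap, with log2 fold changes of -1.15 ± 0.19 (adjusted p = 0.00434) for FGF-ESC minus EpiSC, 1.04 ± 0.19 (adjusted p = 0.00609) for EpiSC minus ESC and 1.61 ± 0.19 (adjusted p = 0.000294) for EpiSC minus ICM. The first of these did not pass with FGF-ESC replicate 1 left out (-0.90 on the log2 scale); over all settings tried its adjusted p lay between 0.000719 and 0.0421. The second did not pass with EpiSC replicate 1 left out (1.01 on the log2 scale) or ESC replicate 1 left out (0.90); over all settings tried its adjusted p lay between 0.000314 and 0.068.

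Prkra, whose protein PACT is a partner of Dicer, read 5.59 and 5.57 in FGF-ESC, 6.52 and 6.07 in EpiSC, 5.14 and 4.92 in ESC and 4.25 and 4.07 in ICM. It rose above ICM by 1.42 ± 0.17 (adjusted p = 0.000385) in FGF-ESC and 2.14 ± 0.17 (adjusted p = 3.41e-05) in EpiSC, and in EpiSC above ESC by 1.26 ± 0.17 (adjusted p = 0.00128). Mov10, an Argonaute-associated helicase, was lowest in EpiSC, at 7.75 and 7.90 in FGF-ESC, 6.46 and 6.66 in EpiSC, 7.72 and 7.69 in ESC and 6.92 and 7.31 in ICM. Its log2 fold change was 1.27 ± 0.16 (adjusted p = 0.00115) for FGF-ESC minus EpiSC and -1.15 ± 0.16 (adjusted p = 0.00143) for EpiSC minus ESC. Ago1, one of the Argonaute genes, was higher in EpiSC than in ICM by 1.10 ± 0.11 (adjusted p = 0.000152). Zswim8, a ubiquitin ligase subunit of target-directed miRNA decay, was higher in FGF-ESC than in ESC by 1.18 ± 0.29 (adjusted p = 0.0321) and than in ICM by 1.49 ± 0.29 (adjusted p = 0.00514), but the FGF-ESC arrays differed by more than 1 (7.21 and 6.13). With FGF-ESC replicate 1 left out these were 0.64 and 0.94, and neither passed; the difference from ESC also did not pass with any other single array left out except FGF-ESC replicate 2, with all probe sets in the fit or with only the 2 groups compared in the fit. The fibroblast marker mean was also higher on the first FGF-ESC array, and its part in the result was not tested. Zswim8 was also higher in EpiSC than in ESC, by 1.09. That difference did not pass with all probe sets in the fit or with any single array of EpiSC, ESC or ICM left out. The helicase gene Ddx5 was higher in FGF-ESC than in ESC by 1.01 ± 0.20 (adjusted p = 0.0137), which did not pass with FGF-ESC replicate 2 left out (0.89 on the log2 scale), ESC replicate 1 left out (1.01) or ESC replicate 2 left out (1.01); over all settings tried its adjusted p lay between 0.00939 and 0.105. The core genes Drosha, Xpo5, Dicer1 and Ago2 passed in no comparison.

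**Figure D5:**
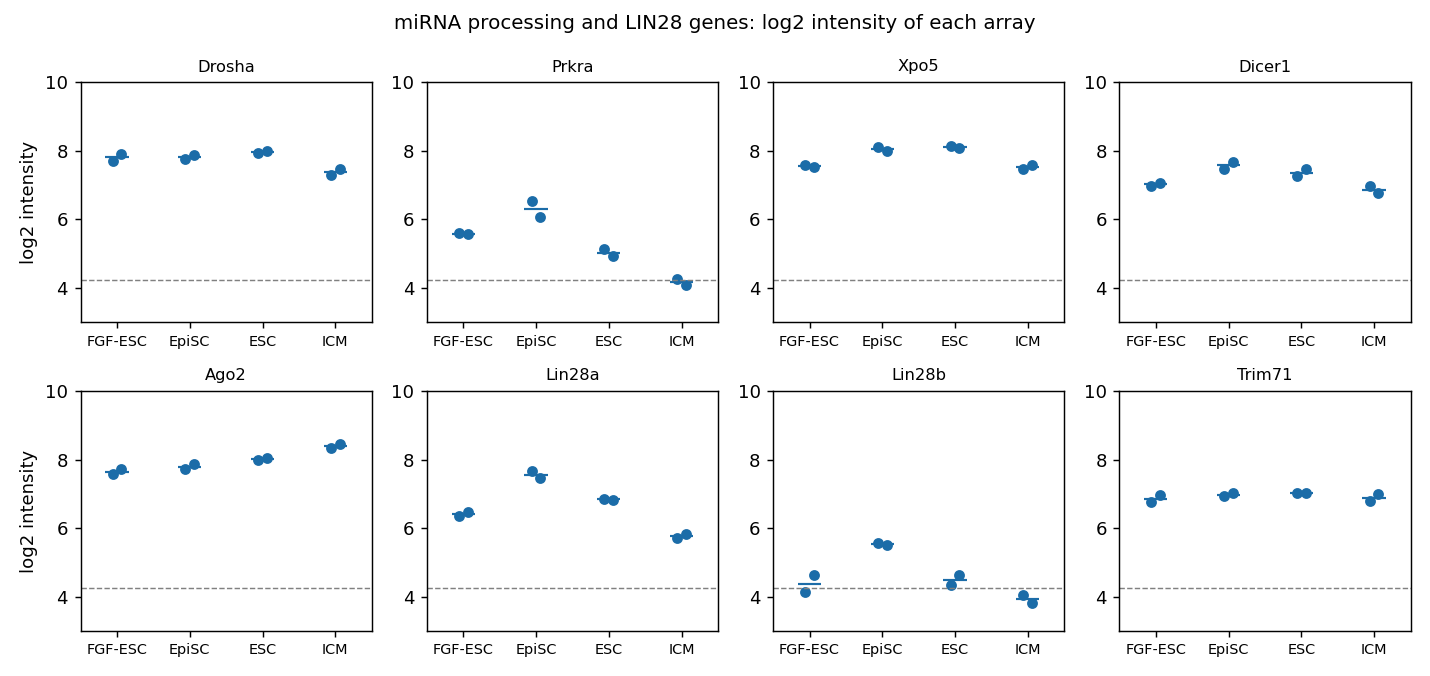
Log2 intensity (y axis) of each array for 8 genes of miRNA processing and function; points are arrays, short lines group means and the dashed line is the median of all values, 4.24. Lin28a and Lin28b are highest in EpiSC, Prkra is highest in EpiSC and lowest in ICM, and Drosha, Xpo5, Dicer1, Ago2 and Trim71 passed in no comparison.

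A list of 44 genes known to host or overlap miRNAs, 34 of them tested, held 15 that changed in some comparison (44.1%, background 25.3%). The counts that rose and fell were 3 and 2 for FGF-ESC against EpiSC, 7 and 0 for FGF-ESC against ESC, 7 and 3 for FGF-ESC against ICM, 2 and 1 for EpiSC against ESC, 5 and 3 for EpiSC against ICM and 3 and 5 for ESC against ICM. The shares called in either direction, with the background in brackets, were 14.7% (7.59%) for FGF-ESC against EpiSC, 20.6% (6.29%) for FGF-ESC against ESC, 29.4% (15%) for FGF-ESC against ICM, 8.82% (7.61%) for EpiSC against ESC, 23.5% (15.3%) for EpiSC against ICM and 23.5% (11.7%) for ESC against ICM. Mest, an imprinted gene that hosts Mir335, read 7.34 and 7.21 in FGF-ESC, 8.67 and 8.36 in EpiSC, 7.95 and 8.02 in ESC and 6.12 and 6.13 in ICM, with log2 fold changes of -1.24 ± 0.14 (adjusted p = 0.000637) for FGF-ESC minus EpiSC, 2.39 ± 0.14 (adjusted p = 6.7e-06) for EpiSC minus ICM and 1.86 ± 0.14 (adjusted p = 3.9e-05) for ESC minus ICM. The lines were all above ICM, and EpiSC was highest. Srebf2, which hosts Mir33 and encodes a regulator of sterol synthesis, was higher in FGF-ESC than in ICM by 1.2, in EpiSC by 1.44 and in ESC by 1.44. Slit3, which hosts Mir218-2 and encodes a secreted guidance protein, read 8.47 and 6.82 in FGF-ESC, 4.89 and 5.07 in EpiSC, 4.51 and 4.44 in ESC and 4.75 and 4.89 in ICM, and FGF-ESC exceeded ESC by 3.17 ± 0.43 (adjusted p = 0.0029). Igf2, the imprinted growth factor gene that hosts Mir483, was higher in FGF-ESC than in EpiSC, ESC and ICM, by 1.34, 1.54 and 1.38. Both had their highest value on FGF-ESC replicate 1, the array with the highest fibroblast marker mean. Whether fibroblasts had a part in these differences was not tested.

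The imprinted Dlk1-Dio3 region on chromosome 12 carries a large miRNA cluster expressed from the maternal copy, whose activity is known to vary among stem cell lines. Of its 15 members, 3 changed in some comparison (20%, under the 27.9% of all members and the background of 25.3%). All 3 were highest in EpiSC. Mir544 read 3.02 and 3.10 in FGF-ESC, 4.37 and 4.28 in EpiSC, 3.13 and 3.10 in ESC and 3.27 and 3.19 in ICM. Only the EpiSC arrays were above the median, by little, so that it was a member through EpiSC alone and its differences are given with no test. The log2 fold change was -1.27 ± 0.11 for FGF-ESC minus EpiSC, 1.21 ± 0.11 for EpiSC minus ESC and 1.09 ± 0.11 for EpiSC minus ICM. Mir453, within the non-coding gene Mirg, read 4.59 and 4.54 in FGF-ESC, 5.69 and 6.03 in EpiSC, 5.37 and 5.32 in ESC and 4.62 and 4.07 in ICM. EpiSC exceeded every other array, and the log2 fold change was -1.29 ± 0.19 (adjusted p = 0.00282) for FGF-ESC minus EpiSC and 1.51 ± 0.19 (adjusted p = 0.00045) for EpiSC minus ICM.

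Mir3070b, within the span of Rtl1, read 3.77 and 3.51 in FGF-ESC, 5.27 and 4.54 in EpiSC, 4.57 and 3.91 in ESC and 3.10 and 3.10 in ICM. Its EpiSC and ESC arrays overlapped, with ICM lowest. Outside EpiSC only 1 array, of ESC, was above the median, so Mir3070b needed EpiSC to be a member and its differences from EpiSC are given with no test. The log2 fold change was -1.27 ± 0.27 for FGF-ESC minus EpiSC (-0.90 with EpiSC replicate 1 left out) and 1.81 ± 0.27 for EpiSC minus ICM. Mir3070b was higher in ESC than in ICM by 1.14 ± 0.27 (adjusted p = 0.0132). The difference between ESC and ICM did not pass with ESC replicate 1 left out (0.81 on the log2 scale), ICM replicate 1 left out (1.14) or ICM replicate 2 left out (1.14); over all settings tried its adjusted p lay between 0.00458 and 0.107. Mir329, the next by adjusted p, changed in no comparison, at 6.29 and 6.91 in FGF-ESC, 7.12 and 6.82 in EpiSC, 7.32 and 7.45 in ESC and 6.58 and 6.39 in ICM. Rian, a non-coding gene of the region that hosts other of its small RNAs, read 8.19 and 7.95 in FGF-ESC, 8.74 and 8.82 in EpiSC, 8.08 and 8.18 in ESC and 7.58 and 7.03 in ICM and was higher in EpiSC than in ICM by 1.48 ± 0.19 (adjusted p = 0.000406).

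Some members were low in ICM compared with all lines. Mir101c read 6.60 and 6.26 in FGF-ESC, 7.87 and 7.17 in EpiSC, 7.34 and 7.30 in ESC and 4.58 and 4.36 in ICM. Both ICM arrays were below every array of the lines. The log2 fold change was 1.96 ± 0.23 (adjusted p = 0.00034) for FGF-ESC minus ICM, 3.05 ± 0.23 (adjusted p = 2.5e-05) for EpiSC minus ICM and 2.85 ± 0.23 (adjusted p = 6.08e-05) for ESC minus ICM, and FGF-ESC was lower than EpiSC at a log2 fold change of -1.09 ± 0.23 (adjusted p = 0.0122). That difference from EpiSC did not pass with only the 2 groups compared in the fit (-1.09 on the log2 scale), FGF-ESC replicate 2 left out (-0.92) or EpiSC replicate 1 left out (-0.74); over all settings tried its adjusted p lay between 0.00621 and 0.0691. Mir680-1 read 6.09 and 6.08 in FGF-ESC, 7.65 and 7.18 in EpiSC, 7.44 and 7.05 in ESC and 5.12 and 4.85 in ICM. EpiSC and ESC overlapped at the top, FGF-ESC lay between, and ICM was lowest. Mir680-1 was higher than in ICM by 1.10 ± 0.20 (adjusted p = 0.00299) in FGF-ESC, 2.43 ± 0.20 (adjusted p = 3.74e-05) in EpiSC and 2.26 ± 0.20 (adjusted p = 9.04e-05) in ESC. FGF-ESC was lower than EpiSC at a log2 fold change of -1.33 and lower than ESC at a log2 fold change of -1.16 ± 0.20 (adjusted p = 0.00775). That last difference did not pass with ESC replicate 1 left out (-0.97 on the log2 scale); over all settings tried its adjusted p lay between 0.00468 and 0.0836. The difference between FGF-ESC and ICM did not pass with ICM replicate 2 left out (0.97 on the log2 scale); over all settings tried its adjusted p lay between 0.00141 and 0.0254. Mir680-2, which has the same mature sequence, was higher than in ICM in EpiSC and ESC, by 1.28 and 1.11. The difference of Mir680-2 between ESC and ICM did not pass with ESC replicate 1 left out (0.95 on the log2 scale); over all settings tried its adjusted p lay between 0.000816 and 0.0253. The kit used for ICM cannot be told apart from any of these differences.

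Other calls were lost when single arrays were left out. Mir467f, within Fxr2 on chromosome 11 and outside Sfmbt2, read 3.41 and 3.84 in FGF-ESC, 4.18 and 3.70 in EpiSC, 4.88 and 3.96 in ESC and 4.71 and 5.92 in ICM. The second ICM array was far above the first. Outside ICM only 1 array, of ESC, was above the median, so Mir467f needed ICM to be a member. Its differences from ICM are therefore given with no test. The log2 fold change of Mir467f was -1.69 ± 0.42 for FGF-ESC minus ICM, and -1.08 with ICM replicate 2 left out. For EpiSC minus ICM it was -1.38 ± 0.42, and -0.77 with ICM replicate 2 left out. Mir28b read 4.09 and 5.32 in FGF-ESC, 4.80 and 4.89 in EpiSC, 5.36 and 5.25 in ESC and 3.57 and 4.23 in ICM. The FGF-ESC arrays were more than 1 apart. ESC exceeded ICM by 1.41 ± 0.36 (adjusted p = 0.0188), which did not pass with ESC replicate 1 left out (1.35 on the log2 scale), ESC replicate 2 left out (1.46) or ICM replicate 1 left out (1.07); over all settings tried its adjusted p lay between 0.000881 and 0.122.

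Of the 183 members, 132 changed in no comparison, and in 78 the 4 group means lay within 0.5 of each other. A list of miRNAs of mesenchyme and smooth muscle had 20 single-symbol probe sets, of which 6, Mir143 among them, were members. The rest were under the level limit. Of the 6, 0 changed in any comparison, beside 25.3% of all tested probe sets. So few members cannot show that the list departs from that share. In limma's fit 2 of them had an unadjusted p under 0.05 in any comparison. The largest log2 difference was 0.69 for Mir210 in EpiSC minus ICM. Mir143 read 4.29 and 4.47 in FGF-ESC, 4.11 and 4.29 in EpiSC, 4.33 and 4.13 in ESC and 3.65 and 4.22 in ICM. Mir210 read 4.21 and 4.86 in FGF-ESC, 5.69 and 4.70 in EpiSC, 4.83 and 4.90 in ESC and 4.47 and 4.52 in ICM, with wide spread in EpiSC. Of 13 single-symbol probe sets on a list for neural tissue, 4 were members (Mir9-1, Mir9-3, Mir124a-2 and Mir212). These also had 0 changes and 0 with an unadjusted p under 0.05 in limma's fit. Their largest log2 difference was -0.37 for Mir124a-2 in ESC minus ICM. Mir34b, of the p53-linked Mir34 genes, and Mir200b, of the epithelial Mir200 family, changed in no comparison. Mir200b differed by more between the ICM arrays (3.16 and 4.69) than between any groups.

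The members with the highest mean over the 8 arrays were nearly level across groups. Mir449b read 10.46 and 10.44 in FGF-ESC, 10.47 and 10.46 in EpiSC, 10.73 and 10.53 in ESC and 10.41 and 10.45 in ICM. Mir703 read 10.17 and 10.21 in FGF-ESC, 10.24 and 10.20 in EpiSC, 10.19 and 10.26 in ESC and 10.33 and 10.32 in ICM. Mir5099 read 10.30 and 10.22 in FGF-ESC, 10.44 and 10.34 in EpiSC, 10.21 and 10.31 in ESC and 10.88 and 10.74 in ICM, with ICM slightly above the lines. Mir692-1 and Mir761, the other members at the top, changed in no comparison either. At the lower edge of the rule, Mir1895, Mir31 and Mir544 were the last to be included, with second-highest values of 4.26, 4.27 and 4.28. The nearest outside were Mir425, Mir383 and Mir1952, at 4.24, 4.21 and 4.21, against the median of 4.24.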

How the data were processed

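Each of the 8 samples has 1 array. The authors deposited log2 intensities, 1 value per probe set and array, and the submitters' processing notes name Affymetrix Expression Console 1.3.1. Neither summarisation method nor genome build is given in the sources used here, so array values carry no coordinates. That the unit is log2 was read from the values. They entered the analysis as deposited. Genes were named through the platform annotation, in which 23521 probe sets had 1 symbol, 1814 several and 16010 none. All 183 members were found in the RefSeq gene table, which updated 0 symbols and gave the gene spans used to find hosts. Another 136 miRNA probe sets with several symbols were left out.

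A means model was fitted with limma 3.58.1 in R 4.3.3 (lmFit, contrasts.fit, eBayes) to all 8 arrays and the 14421 single-symbol probe sets above the median on at least 2 arrays, with Benjamini-Hochberg adjustment over all of these within each of 6 comparisons. The fit has 4 residual degrees of freedom, and every adjusted p and SE is limma's. The code was tested on simulated data. The number of arrays limits the precision.

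The members, gene lists and tests were chosen with earlier results of these data known. Named members are those of the Mir290, Mir302, Mir17-92, Mir106b-25 and Mir106a-363 clusters, up to 8 rises and 8 falls per comparison without overlap of arrays, the 5 highest, 3 on either side of the level limit and up to 4 of each list by adjusted p. A host was named with its member. Members named outside this rule, Mir32 and Mir92b (by seed) and Mir669a-3, Mir297a-4 and Mir680-2 (by call), were chosen after their values were seen, as were the hosts Gcnt2, Klf9 and Snhg4.

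Alternatives were 1 probe set per gene, all probe sets in the fit, no level filter, above the median on 4 arrays, quantile normalization, median centring, no fold minimum, a variance trend, array weights, only the 2 groups compared, the replicate number as a block, each array left out, and, added after seeing the data, identical rows counted once and members above the median in one group alone left out.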

Additional observations from a re-analysis of the deposited data

How the results depend on the processing

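Counts of changed members moved by over 1.5 times under few settings. With 1 probe set per gene they were 17 for FGF-ESC against EpiSC, 15 for FGF-ESC against ICM, 16 for EpiSC against ESC and 17 for ESC against ICM, because repeated probe sets are dropped. Without the fold minimum they were 16 for FGF-ESC against ESC, 50 for FGF-ESC against ICM, 49 for EpiSC against ICM and 54 for ESC against ICM, with 20 processing genes and 27 hosts. Requiring 4 arrays above the median gave 11 for EpiSC against ICM, since the other calls were of members above the median on too few arrays. Leaving out 1 array gave 31 to 36 for FGF-ESC against EpiSC, 3 to 13 for FGF-ESC against ESC, 29 to 38 for FGF-ESC against ICM, 31 to 34 for EpiSC against ESC, 18 to 25 for EpiSC against ICM, 24 to 34 for ESC against ICM, 6 to 8 for processing genes and 13 to 17 for hosts. In these fits the lone array of a group is assumed to vary like the other groups.

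Of 158 calls of members over the 6 comparisons, 32 were lost under at least 1 setting. Of 102 calls of processing genes and hosts, 27 were. A call whose probe set was itself dropped by a setting did not count as lost. That holds for 1 probe set per gene and for 4 arrays above the median, where the counts of changed members fell. In these calls 0 reversed. With the replicate number as a block the counts were 34, 5, 32, 33, 20 and 33 in the order FGF-ESC against EpiSC, ESC and ICM, EpiSC against ESC and ICM, and ESC against ICM; the calls lost under it were Mir467f in EpiSC against ICM and the host Lpp in FGF-ESC against ESC. Same-numbered arrays did not deviate together (correlations between -0.098 and 0.0458). That check rests on 1 difference per group, so it cannot exclude that the numbers pair samples. Having 2 arrays per group, several members near the median of all values and identical rows limit the precision.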

Other observations

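Probe sets annotated with several symbols cannot be given to one gene and entered no test, but some cover the named clusters. One probe set is listed with 7 symbols, Mir291a, Mir291b, Mir292, Mir293, Mir294 and Mir295 of the Mir290 cluster together with D7Ertd143e. It read 5.70 and 6.87 in FGF-ESC, 5.52 and 5.78 in EpiSC, 6.81 and 6.86 in ESC and 7.27 and 7.26 in ICM. EpiSC was lowest but for the first FGF-ESC array, which lay within the EpiSC range, ICM was highest, and the FGF-ESC arrays were more than 1 apart. A probe set listed with Mir17hg, Mir19b-1 and Mir92-1 read 5.61 and 6.29 in FGF-ESC, 5.69 and 5.82 in EpiSC, 5.36 and 5.16 in ESC and 5.36 and 4.95 in ICM. A probe set listed with Kis2 and Mir106a, of the X-linked cluster, read 4.22 and 4.79 in FGF-ESC, 4.91 and 4.49 in EpiSC, 3.52 and 3.64 in ESC and 3.62 and 3.54 in ICM, with both lines on feeders above ESC and ICM. Of the probe sets listed with several symbols of the Mir669a family, 14 held only 2 distinct rows of values. The first row read 3.92 and 3.80 in FGF-ESC, 6.29 and 6.19 in EpiSC, 3.88 and 3.99 in ESC and 4.81 and 4.91 in ICM, and the second 3.55 and 3.66 in FGF-ESC, 5.98 and 6.14 in EpiSC, 3.45 and 3.24 in ESC and 4.68 and 4.69 in ICM. In both rows EpiSC was highest, ICM came next and FGF-ESC and ESC were lowest.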
